A study of Homo sapiens
Mus musculus with 16 samples.

Results

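Natural killer (NK) cells and T cells are the lymphocytes that kill other cells directly, and 10 mouse genes that mark them or their killing machinery were followed in tumours grown in athymic hosts. The genes were taken as a fixed list of Ensembl gene IDs paired with symbols, in the order *Ncr1*, *Klrb1c*, *Nkg7*, *Gzma*, *Gzmb*, *Prf1*, *Il2rb*, *Cd3e*, *Cd4* and *Cd8a*. All 10 were found among the 48795 IDs of the mouse count matrix, and all 10 were among the 15074 mouse genes that passed the filter on low counts and were tested. The tumours were grown from the human triple-negative breast line MDA-MB-231, of which 2000000 cells in 50 µl were placed in the mammary fat pad of Balb/c nude mice, and were excised on day 50. The combination group received nab-paclitaxel (paclitaxel, which stabilises microtubules, bound to albumin) at 30 mg/kg on days 15, 22 and 29. It also received phenelzine, a monoamine oxidase inhibitor, at 40 mg/kg daily from day 15. The nab-paclitaxel group and the phenelzine group received 1 of these drugs on the same schedule, and the vehicle group received vehicle alone, all by intraperitoneal injection. Every group held 4 mice with 1 library each, 16 in all. Mouse genes stand for host cells and human genes for tumour cells, as far as the deposited matrices separate the species; how well they do was not tested.

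NK cells develop in the bone marrow and need signals from interleukin-15, which they receive through a receptor that contains the Il2rb chain. They kill by releasing granules in which perforin opens the target membrane and granzymes enter to start cell death, and activated CD8 T cells use the same machinery. Nude mice lack a functional thymus because of a mutation in *Foxn1*. Conventional T cells are therefore scarce in them, while NK cells are present, and small numbers of T cells that mature outside the thymus are known to accumulate with age. Several of the genes are shared between cell types. *Il2rb*, *Nkg7* and the granule genes are expressed in NK cells and in cytotoxic T cells, *Cd4* also in some mouse dendritic cells and other myeloid cells, and *Cd8a* also in a subset of dendritic cells. *Ncr1* and *Cd3e* are the most restricted of the list, to NK and other innate lymphocytes and to T cells.

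The mouse totals were 3457146 to 27389920 counts per library and made up 9.25% to 71.2% of all counts. The share of mouse counts averaged 42.4% in the 8 libraries with nab-paclitaxel and 16.8% in the 8 without (exact permutation test, two-sided, p = 0.00622, adjusted p = 0.0435 over 7 comparisons). Nab-paclitaxel 1 and 4 and combination 1 and 3 stood apart by their human genes, with scores of 99.5, 55.3, 86.7 and 96.8 on the first principal component, against -41.3 to 0.92 in the other 12 libraries. Levels below are CPM, counts per 1000000 mouse counts, after scaling by trimmed mean of M values, so they describe the make-up of the host RNA and not the amount of host tissue. In whole tumours, fewer cells of a type and less RNA per cell cannot be told apart.

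No gene of the list passed the threshold in any of the 8 comparisons made, an adjusted p of 0.05 in edgeR's quasi-likelihood test. The background of such calls was low: 0% of the mouse genes tested were called for nab-paclitaxel against vehicle, 0% for phenelzine against vehicle, 0.0332% for the combination against vehicle, 0.0199% for the combination against nab-paclitaxel, 0.00663% for the combination against phenelzine and 0% for the interaction of both drugs. It was 0.796% for all nab-paclitaxel tumours against all without, and 0.0265% for all phenelzine tumours against all without. An unadjusted p under 0.05 was found for 1 of the 10 genes for nab-paclitaxel against vehicle, beside 11.9% of all mouse genes, for 3 for phenelzine against vehicle (6.11%) and for 1 for the combination against vehicle (13.7%). It was found for 0 for the combination against nab-paclitaxel (5.53%), 2 for the combination against phenelzine (18.1%) and 1 for the interaction (8.15%). It was found for 5 for all nab-paclitaxel tumours against all without (20.7%) and 1 for all phenelzine tumours against all without (3.81%). DESeq2 called 1 gene of the list for the combination against phenelzine, beside 3.76% of all mouse genes with an adjusted p. It called 2 for all nab-paclitaxel tumours against all without, beside 8.68%, where voom with quality weights called 1, beside 5.96%. Both tools called 0 of the list in the other comparisons. The data also show a wide range between tumours of 1 group, higher values of the T cell genes with nab-paclitaxel that did not pass, and a pattern of genes that varied together from tumour to tumour.

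**Figure D1:**
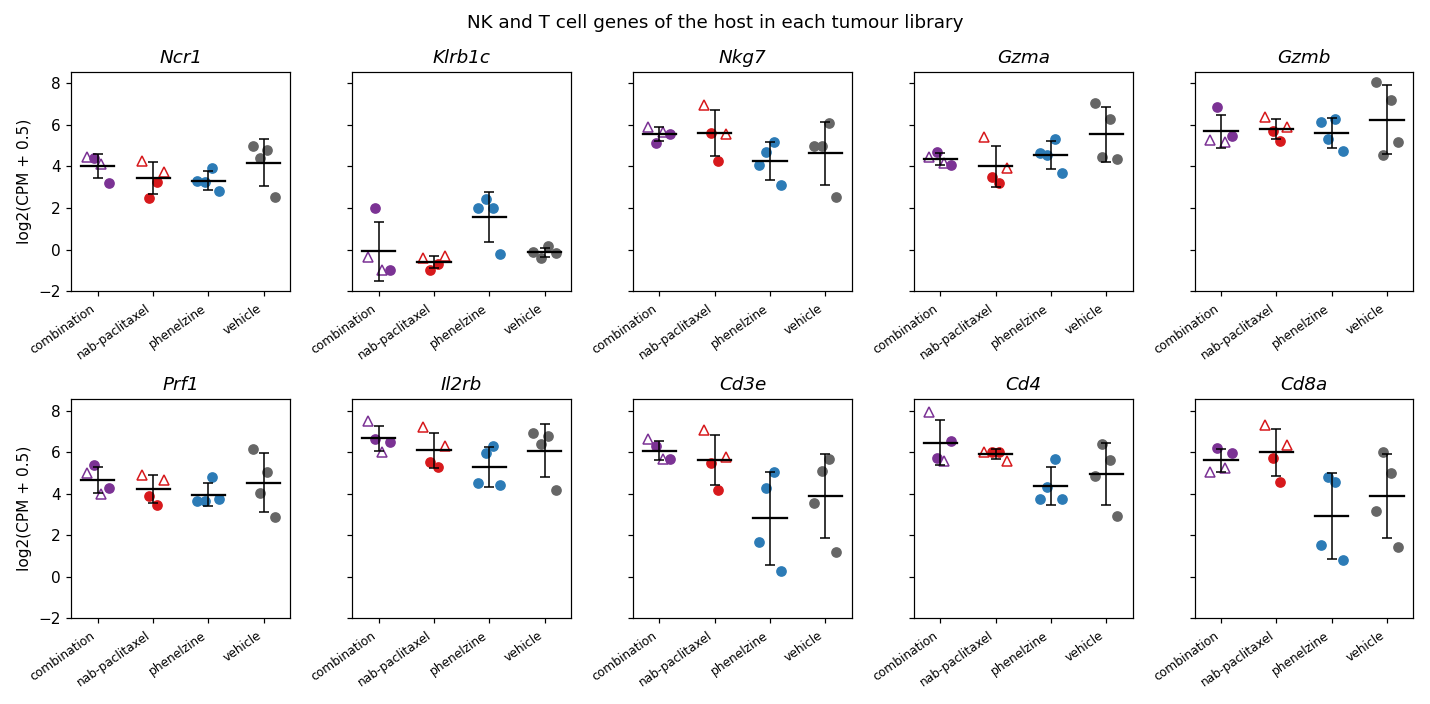
Levels of the 10 genes as log2(CPM + 0.5) in each library, by group; points are single tumours, bars the mean and error bars the SD (n = 4). Open triangles mark the 4 libraries that stood apart by their human genes. *Cd3e* and *Cd8a* reach down to 0.715 and 1.25 CPM in phenelzine and 1.80 and 2.19 CPM in vehicle tumours. Their lowest values with nab-paclitaxel are 17.5 and 23.3 CPM, and *Klrb1c* stays near the bottom of the scale in most libraries.

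*Cd3e* (ENSMUSG00000032093) encodes the epsilon chain of CD3, part of the T cell receptor complex. It had a count above 0 in every one of the 16 libraries, from 4 to 3105. The lowest count, 4 in phenelzine 4, is within the range where counts in this matrix are not plain tallies of single reads (see *Klrb1c* below). Presence of T cell RNA in that host is therefore not established by this count. In combination tumours 1 to 4 it stood at 97.2, 79.1, 50.4 and 51.1 CPM, and in nab-paclitaxel tumours at 133, 44.6, 17.5 and 54.0 CPM. Phenelzine tumours had 2.64, 18.6, 32.1 and 0.715 CPM and vehicle tumours 11.3, 33.9, 50.8 and 1.80 CPM. All 4 combination values lay above all 4 phenelzine values, as for 5.6% of all mouse genes tested, whereas the nab-paclitaxel and vehicle groups overlapped. Across all 16 libraries, 5 of the 8 tumours with nab-paclitaxel lay above every tumour without it, and 4 of the 8 without it lay below every tumour with it. The share of all mouse genes with such counts of tumours was not computed, here or for *Cd4* below.

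*Cd8a* (ENSMUSG00000053977), the alpha chain of the CD8 co-receptor, had a similar pattern. It stood at 32.8, 73.0, 36.6 and 60.7 CPM in combination tumours and 157, 52.4, 23.3 and 81.4 CPM in nab-paclitaxel tumours. Phenelzine tumours had 2.38, 27.5, 23.1 and 1.25 CPM and vehicle tumours 8.35, 63.4, 31.5 and 2.19 CPM. The combination and phenelzine groups again did not overlap, with the same background of 5.6% of all mouse genes. The lowest libraries were phenelzine 4, vehicle 4 and phenelzine 1 for both *Cd8a* and *Cd3e*.

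*Cd4* (ENSMUSG00000023274), the co-receptor of helper T cells, stood at 247, 51.5, 47.8 and 92.2 CPM in combination tumours, 64.6, 62.7, 64.6 and 46.4 CPM in nab-paclitaxel tumours, 12.95, 19.3, 51.1 and 12.7 CPM in phenelzine tumours and 28.6, 84.6, 48.1 and 6.98 CPM in vehicle tumours. The nab-paclitaxel group was narrow, and 5 of the 8 tumours without nab-paclitaxel lay below all 8 with it. Combination 1 was the highest, and it had 0.133 *Cd8a* counts for each *Cd4* count, the lowest ratio in that group, where the others had 0.658 to 1.42.

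Over both states of phenelzine, *Cd3e* averaged 65.9 ± 36.0 CPM in tumours with nab-paclitaxel and 19.0 ± 18.4 CPM in tumours without (SD, n = 8 each), with 1.86 as the log2 fold change (SE 0.66, edgeR adjusted p = 0.138). *Cd8a* averaged 64.6 ± 42.3 CPM with and 19.96 ± 21.4 CPM without it, with 1.72 as the log2 fold change (SE 0.66, edgeR adjusted p = 0.162). *Cd4* averaged 84.6 ± 67.2 CPM with and 33.0 ± 26.5 CPM without it, with 1.35 as the log2 fold change (SE 0.47, edgeR adjusted p = 0.132). All 3 had an unadjusted p under 0.05 (0.0137 for *Cd3e*, 0.0198 for *Cd8a* and 0.0120 for *Cd4*), as did 9.73% of all mouse genes in the same direction. Their median log2 fold change was 1.72, against -0.01 for all genes tested. DESeq2 placed *Cd3e* and *Cd4* past the threshold (adjusted p = 0.0470 and 0.0425) and voom placed *Cd4* (adjusted p = 0.0420), beside 8.68% of all mouse genes by DESeq2 and 5.96% by voom, so these calls depended on the tool. With the mouse share as a covariate the log2 fold changes were 0.95, 1.10 and 0.84 for *Cd3e*, *Cd8a* and *Cd4*, at edgeR adjusted p = 0.853, 0.819 and 0.806. Without the 4 libraries that stood apart they were 1.31, 1.40 and 1.09, at edgeR adjusted p = 0.817, 0.796 and 0.711. Those 4 libraries had mouse shares of 41.9% to 71.2%, so this setting is not separate from the one with the mouse share. It also leaves fewer tumours with nab-paclitaxel.

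The pooled value is the average of 2 comparisons of the same libraries, the combination against phenelzine and nab-paclitaxel against vehicle, so these are its parts and no further evidence. The combination against phenelzine gave log2 fold changes of 2.38 for *Cd3e* (SE 0.97, edgeR adjusted p = 0.235), 2.20 for *Cd4* (SE 0.69, edgeR adjusted p = 0.177) and 1.90 for *Cd8a* (SE 0.95, edgeR adjusted p = 0.302). An unadjusted p under 0.05 in this direction was found for *Cd3e* and *Cd4* (0.0266 and 0.00591) and for 9.14% of all mouse genes. DESeq2 called *Cd4* alone of the list (adjusted p = 0.0319), beside 3.76% of all mouse genes. With the mouse share as a covariate the values were 1.21, 1.36 and 1.09 for *Cd3e*, *Cd4* and *Cd8a*, each at an edgeR adjusted p of 0.9999. Without the 4 libraries that stood apart the values were 2.30, 1.61 and 2.31 for *Cd3e*, *Cd4* and *Cd8a*, at edgeR adjusted p = 0.673, 0.653 and 0.667. Without combination 1 alone *Cd4* had 1.42, and without phenelzine 3 alone *Cd4* had 2.87 and *Cd3e* 3.20. Without phenelzine 2 alone *Cd8a* had 2.56. Non-overlap with higher combination values, as for *Cd3e* and *Cd8a*, was found in 5.6% of all mouse genes. Group means of *Cd3e* were 69.5 ± 22.8 CPM with the combination and 13.5 ± 14.8 CPM with phenelzine (SD, n = 4 each).

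Nab-paclitaxel against vehicle gave values of the same sign, with log2 fold changes of 1.34 for *Cd3e* (SE 0.92, edgeR adjusted p = 0.577), 1.55 for *Cd8a* (SE 0.92, edgeR adjusted p = 0.520) and 0.49 for *Cd4* (SE 0.65, edgeR adjusted p = 0.802). The combination against vehicle gave 1.49 for *Cd3e* (SE 0.92, edgeR adjusted p = 0.477), 1.37 for *Cd4* (SE 0.66, edgeR adjusted p = 0.373) and 0.92 for *Cd8a* (SE 0.91, edgeR adjusted p = 0.673). Both comparisons use the same 4 vehicle libraries. Phenelzine against vehicle, which uses them too, gave -0.89 for *Cd3e* (SE 0.94, edgeR adjusted p = 0.907). It gave -0.84 for *Cd4* (SE 0.67, edgeR adjusted p = 0.879) and -0.98 for *Cd8a* (SE 0.94, edgeR adjusted p = 0.894). The interaction, which asks whether the effect of nab-paclitaxel differed with phenelzine, did not pass for any of the 3, with edgeR adjusted p from 0.626 to 0.943. Single libraries carried much weight: the value of *Cd8a* for nab-paclitaxel against vehicle was 0.97 without nab-paclitaxel 1 and 2.48 without vehicle 2, and that of *Cd3e* was 0.65 without nab-paclitaxel 1 and 2.00 without vehicle 3. That of *Cd4* was 1.10 without vehicle 2. For the combination against vehicle *Cd4* had 0.61 without combination 1 and 1.98 without vehicle 2, *Cd3e* had 2.14 without vehicle 3 and *Cd8a* 1.83 without vehicle 2.

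**Figure D2:**
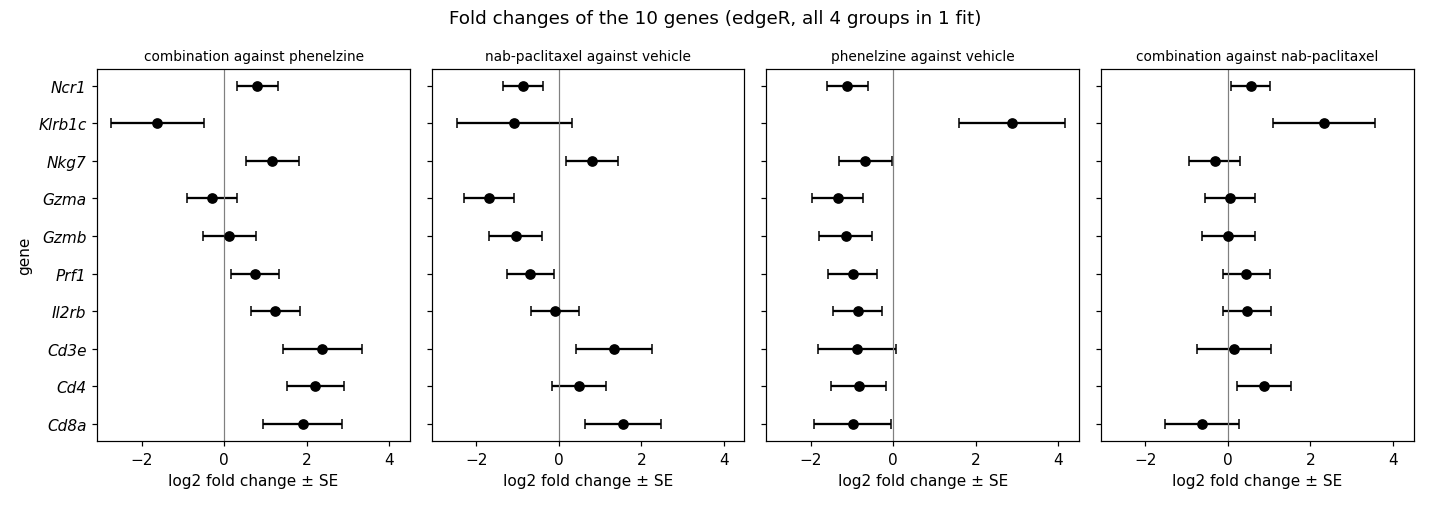
log2 fold changes of the 10 genes with their standard errors, in 4 comparisons of the fit to all 16 libraries. *Cd3e*, *Cd4* and *Cd8a* lie above 0 in both comparisons that add nab-paclitaxel and below 0 for phenelzine against vehicle. In the latter *Klrb1c* is the only gene above 0, beside 45.2% of all mouse genes tested. None passed the adjusted threshold.

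*Ncr1* (ENSMUSG00000062524) encodes NKp46, an activating receptor of NK cells. It stood at 21.1, 20.6, 17.1 and 8.65 CPM in combination tumours, 18.9, 5.004, 9.05 and 12.9 CPM in nab-paclitaxel tumours, 9.25, 8.91, 14.6 and 6.44 CPM in phenelzine tumours and 30.9, 20.4, 27.6 and 5.19 CPM in vehicle tumours. The groups overlapped in every comparison. Its range over 16 libraries was 6.18-fold, against 186-fold for *Cd3e* and 125.2-fold for *Cd8a*. The ranges of *Cd3e* and *Cd8a* rest on very low counts in phenelzine 4, 4 and 7. Phenelzine against vehicle gave -1.11 as the log2 fold change (SE 0.50, unadjusted p = 0.0421, edgeR adjusted p = 0.796), and nab-paclitaxel against vehicle -0.86 (SE 0.48, edgeR adjusted p = 0.498). The combination did not repeat these values, and the interaction of both drugs was 1.66 on the log2 scale (SE 0.69, unadjusted p = 0.0300, edgeR adjusted p = 0.597), a difference that did not pass. An unadjusted p under 0.05 in these directions was found in 4.33% of all genes for phenelzine against vehicle and 5.25% for the interaction.

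The vehicle group itself was uneven. Vehicle 4 had the lowest values of *Nkg7*, *Prf1*, *Il2rb* and *Cd4* among all 16 libraries, and vehicle 1 the highest of *Ncr1*, *Gzma*, *Gzmb* and *Prf1*. These libraries had almost the same mouse share, 13.6% in vehicle 4 and 13.8% in vehicle 1.

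*Klrb1c* (ENSMUSG00000030325), the gene of the NK1.1 antigen, was barely counted. In BALB/c mice NK cells are not stained by the NK1.1 antibody, and the locus differs between strains. The gene had 164 counts in all, with 7, 75, 0 and 0 in combination tumours, 6, 0, 1 and 5 in nab-paclitaxel tumours, 13, 31, 12 and 2 in phenelzine tumours and 2, 4, 4 and 2 in vehicle tumours. In the matrix the values 1, 2, 3 and 4 occur 9478, 15617, 17175 and 6776 times, so low counts are not plain tallies of single reads, and no upper limit is given for the 3 libraries at 0. Its values above 1 CPM were 3.50 CPM in combination 2 and 3.44, 4.93 and 3.51 CPM in phenelzine 1, 2 and 3, all in tumours that received phenelzine.

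For all phenelzine tumours against all without, the log2 fold change of *Klrb1c* was 2.61 (SE 0.89, unadjusted p = 0.0104, edgeR adjusted p = 0.993), and 1.12 without combination 2. An unadjusted p under 0.05 in the higher direction was found for 1.82% of all mouse genes in that comparison, and for 1.78% in phenelzine against vehicle. The value was 2.88 for phenelzine against vehicle (SE 1.28, edgeR adjusted p = 0.796) and 2.34 for the combination against nab-paclitaxel (SE 1.23, edgeR adjusted p = 0.851), where it turned to -0.64 without combination 2. Whether reads of related genes at this locus were counted here was not tested.

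*Gzma* (ENSMUSG00000023132) and *Gzmb* (ENSMUSG00000015437) encode granzymes A and B, the proteases that enter a target cell, and *Prf1* (ENSMUSG00000037202) the perforin that lets them in. *Gzma* stood at 21.2, 25.6, 17.4 and 16.1 CPM in combination tumours, 42.7, 10.8, 8.70 and 14.6 CPM in nab-paclitaxel tumours, 24.3, 22.6, 39.7 and 12.3 CPM in phenelzine tumours and 132, 21.5, 77.5 and 20.2 CPM in vehicle tumours. Vehicle 1 and 3 were far above the rest, and the other 2 vehicle tumours lay within the range of the treated groups. The log2 fold changes against vehicle were -1.64 for the combination (SE 0.61, edgeR adjusted p = 0.293), -1.69 for nab-paclitaxel (SE 0.61, edgeR adjusted p = 0.313) and -1.35 for phenelzine (SE 0.61, edgeR adjusted p = 0.796). These share the vehicle libraries. All 3 had an unadjusted p under 0.05, at 0.0173, 0.0146 and 0.0447, in a direction found for 7.46%, 6.87% and 4.33% of all mouse genes. Without vehicle 1 the values were -0.98, -1.02 and -0.68, and the unadjusted p was 0.112, 0.0980 and 0.261 in edgeR. Without nab-paclitaxel 1 the value for nab-paclitaxel was -2.45 (edgeR adjusted p = 0.437).

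*Gzmb* had 37.9, 114, 35.3 and 44.2 CPM in combination tumours, 82.3, 51.4, 36.3 and 58.4 CPM in nab-paclitaxel tumours, 68.7, 39.0, 78.6 and 26.3 CPM in phenelzine tumours and 268.3, 22.8, 146 and 35.5 CPM in vehicle tumours. Vehicle tumours held both the highest and the lowest value. *Gzmb* counts per *Gzma* count were 1.79 to 4.45 with the combination, 1.92 to 4.76 with nab-paclitaxel, 1.73 to 2.83 with phenelzine and 1.06 to 2.03 with vehicle. *Gzmb* against vehicle gave -1.04 on the log2 scale for nab-paclitaxel (SE 0.65, edgeR adjusted p = 0.536), and -0.24 without vehicle 1 (edgeR adjusted p = 0.933). *Prf1* ranged from 15.1 to 40.9 CPM with the combination, 10.3 to 29.0 with nab-paclitaxel, 11.9 to 27.5 with phenelzine and 6.78 to 71.2 with vehicle, and had no unadjusted p under 0.05 in any comparison.

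*Nkg7* (ENSMUSG00000004612) encodes a membrane protein of cytotoxic granules that takes part in their release. It had 59.2, 34.6, 49.5 and 46.9 CPM in combination tumours, 123, 48.8, 18.7 and 46.4 CPM in nab-paclitaxel tumours, 16.1, 25.6, 35.4 and 8.05 CPM in phenelzine tumours and 30.7, 31.6, 67.2 and 5.19 CPM in vehicle tumours. With nab-paclitaxel it averaged 53.4 ± 30.6 CPM and without it 27.5 ± 19.5 CPM (SD, n = 8 each), with 0.99 as the log2 fold change (SE 0.45, unadjusted p = 0.0431, edgeR adjusted p = 0.227). *Gzma*, from the same granules, had -0.99 in that comparison (SE 0.43, unadjusted p = 0.0355, edgeR adjusted p = 0.208), where 11% of all genes had an unadjusted p under 0.05 in the lower direction. The combination against phenelzine gave 1.17 for *Nkg7* (SE 0.64, edgeR adjusted p = 0.339).

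*Il2rb* (ENSMUSG00000068227), the shared beta chain of the interleukin-2 and interleukin-15 receptors, had 178, 97.9, 64.4 and 90.3 CPM in combination tumours, 146, 46.2, 38.9 and 77.8 CPM in nab-paclitaxel tumours, 22.5, 60.9, 78.3 and 20.9 CPM in phenelzine tumours and 120, 82.8, 110.1 and 17.6 CPM in vehicle tumours. All 4 groups overlapped. The combination against phenelzine gave 1.24 as the log2 fold change (SE 0.59, edgeR adjusted p = 0.281).

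Inside a library, the balance of T to NK markers does not depend on how libraries are scaled. For each *Ncr1* count there were 4.62, 3.84, 2.95 and 5.91 *Cd3e* counts in combination tumours and 7.04, 8.92, 1.94 and 4.18 in nab-paclitaxel tumours. Phenelzine tumours had 0.286, 2.09, 2.20 and 0.111 and vehicle tumours 0.365, 1.66, 1.84 and 0.346. All 4 combination and 3 of 4 nab-paclitaxel tumours lay above every tumour without nab-paclitaxel. The ratio uses the *Cd3e* counts described above and is no further evidence. How often other mouse genes taken per *Ncr1* count separate in this way was not computed. The tumours with nab-paclitaxel that did not stand apart by human genes had 3.84 and 5.91 in the combination and 8.92 and 1.94 in the nab-paclitaxel group. The ratio is not a ratio of cells, since gene length and RNA per cell were not taken into account, and it was given no test because it was chosen after the values were seen. Mouse shares were also higher with nab-paclitaxel than without, at 18.6% to 71.2% with the combination, 21.0% to 59.7% with nab-paclitaxel, 9.25% to 16.1% with phenelzine and 13.6% to 37.8% with vehicle, and their part in the ratio was not tested. Mean shares were 48.3% with the combination, 36.5% with nab-paclitaxel, 12.6% with phenelzine and 21.1% with vehicle. Median ratios were 4.23, 5.61, 1.19 and 1.01 in the same order. With phenelzine and with vehicle the median falls between a low and a high pair of values. Among single libraries, combination 4 (18.6%), vehicle 3 (19.0%), nab-paclitaxel 3 (21.0%) and nab-paclitaxel 2 (23.4%) had ratios of 5.91, 1.84, 1.94 and 8.92. Vehicle 2 (37.8%) and nab-paclitaxel 4 (41.9%) had 1.66 and 4.18. These libraries were picked after the values were seen, and no test was made of them.

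**Figure D3:**
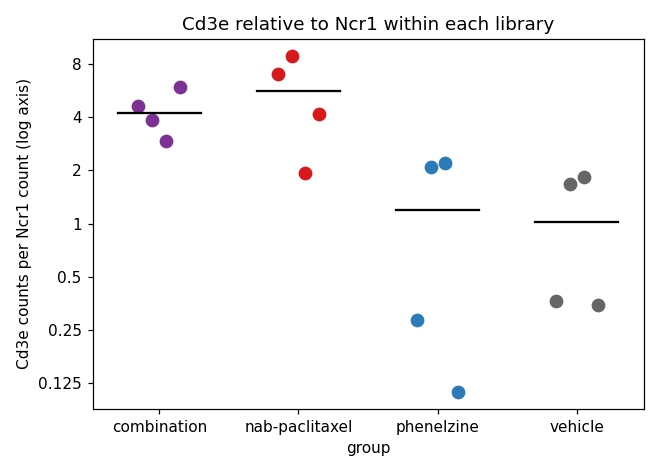
*Cd3e* counts per *Ncr1* count in each library on a log axis, with the median of each group as a bar. The medians are 4.23 for the combination, 5.61 for nab-paclitaxel, 1.19 for phenelzine and 1.01 for vehicle, and phenelzine and vehicle each split into a pair of tumours below 0.4 and a pair above 1.6.

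Many of the genes varied together from tumour to tumour, and *Nkg7* did so most closely with *Cd3e*. Of the 45 pairs, 20 had a Pearson correlation of log2 levels over 16 libraries with an adjusted p under 0.05 (permutation test, 100000 resamples, adjusted over the 45 pairs). The share of pairs of other mouse genes that would pass was not computed, so this number is not particular to the list. Libraries were shuffled across the 4 groups, so differences between groups enter these p-values. *Cd3e* and *Cd8a* had r = 0.952 and Spearman's rho = 0.876 (permutation p = 1e-05 and adjusted p = 0.00022 for r, the smallest the resamples can give; adjusted p = 0.00075 for rho). *Nkg7* and *Cd3e* had r = 0.918 and rho = 0.862 (permutation adjusted p = 0.00022 for r and 0.00075 for rho). *Nkg7* and *Il2rb* had r = 0.862 and rho = 0.724 (permutation adjusted p = 0.00045 for r and 0.0138 for rho), above *Nkg7* with *Cd8a* (r = 0.852, rho = 0.688) and with *Cd4* (r = 0.761, rho = 0.632). *Nkg7* and *Ncr1* had r = 0.591 and rho = 0.441 (permutation adjusted p = 0.0345 for r and 0.150 for rho). The differences between these correlations were not tested. Among the other 15073 genes tested, *Cd8a* ranked 15 and *Nkg7* 32 in likeness to *Cd3e*, and *Nkg7* ranked 773 in likeness to *Ncr1*.

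*Ncr1* varied most closely with perforin. *Ncr1* and *Prf1* had r = 0.824 and rho = 0.812 (permutation adjusted p = 0.00073 for r and 0.0027 for rho), and *Prf1* ranked 21 of 15073 in likeness to *Ncr1*. *Gzma* and *Gzmb* had r = 0.818 and rho = 0.688 (permutation adjusted p = 0.00073 for r and 0.0173 for rho). *Il2rb* stood between both sets, with r = 0.797 to *Ncr1* and 0.859 to *Cd3e* (permutation adjusted p = 0.00099 and 0.00073), and rho = 0.809 and 0.747 (permutation adjusted p = 0.0027 and 0.0096). *Gzma* had r = 0.128 to *Cd3e* and rho = 0.156 (permutation adjusted p = 0.765 and 0.618), but r = 0.567 once group means were removed. None of the 9 pairs with *Klrb1c* passed on r, which ran from -0.35 to 0.27, and 1 passed on rho, *Klrb1c* with *Gzma* (rho = 0.619, permutation adjusted p = 0.0308).

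The relations were also seen inside the treatment groups. With group means removed, r was 0.933 for *Cd3e* with *Cd8a*, 0.901 for *Cd3e* with *Nkg7*, 0.815 for *Ncr1* with *Prf1* and 0.880 for *Gzma* with *Gzmb*. Without the 2 libraries farthest from the median of the first gene, r was 0.899, 0.839, 0.806 and 0.528 for these pairs, and *Gzma* with *Gzmb* is the one that rested most on such libraries. Within the 8 libraries with nab-paclitaxel *Cd4* had r = 0.287 to *Cd3e* and -0.317 to *Cd8a*, and within the 8 without it 0.875 and 0.874.

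**Figure D4:**
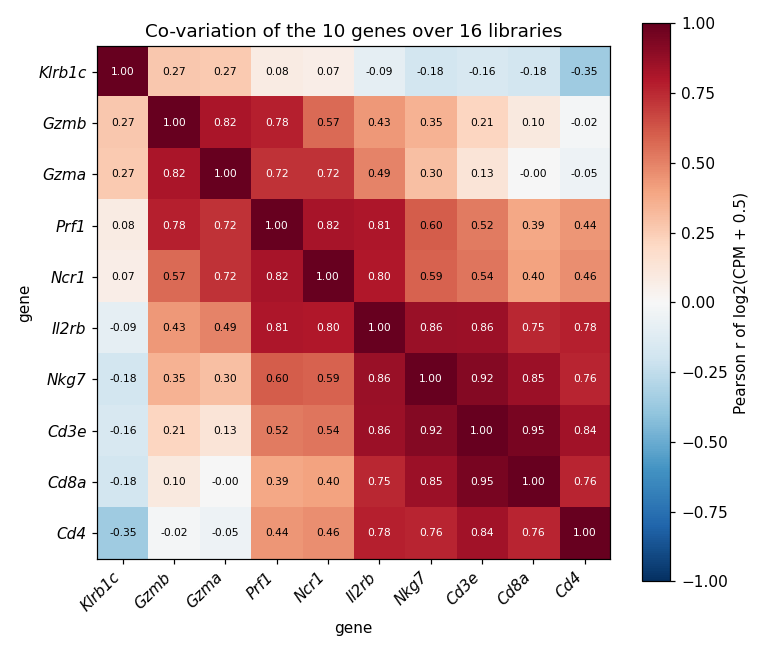
Pearson correlation of log2(CPM + 0.5) between each pair of the 10 genes over 16 libraries, with the genes arranged so that similar ones are neighbours. *Nkg7*, *Cd3e*, *Cd8a* and *Cd4* form a block with r of 0.76 to 0.95, *Il2rb* links it to *Ncr1* and *Prf1*, and *Klrb1c* stands apart.

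Levels of 5 of the 10 genes, *Cd3e*, *Cd4*, *Cd8a*, *Nkg7* and *Il2rb*, were related to the mouse share over the 16 libraries with an adjusted p under 0.05 for Pearson's r. The share of all mouse genes related to it in this way was not computed, so this number is not particular to the list. Against the mouse share of counts, *Cd3e* had r = 0.663 and rho = 0.788 (permutation adjusted p = 0.0370 for r and 0.0042 for rho, over 10 genes), and *Cd8a* r = 0.590 and rho = 0.762 (permutation adjusted p = 0.0370 and 0.0042). *Cd4* had r = 0.632 and rho = 0.606 (permutation adjusted p = 0.0370 and 0.0363). *Nkg7* had r = 0.580 and rho = 0.656 (permutation adjusted p = 0.0370 and 0.0230). *Il2rb* had r = 0.578 and rho = 0.494 (permutation adjusted p = 0.0370 and 0.0896). *Ncr1* had r = 0.442 and rho = 0.347 (permutation adjusted p = 0.146 and 0.236), and *Gzma* -0.104 and -0.174 (permutation adjusted p = 0.709 and 0.577). The mouse share was itself higher with nab-paclitaxel. With the means of the 4 groups removed, r was 0.359 for *Cd3e*, 0.299 for *Cd4*, 0.288 for *Cd8a*, 0.365 for *Nkg7*, 0.415 for *Il2rb* and 0.525 for *Ncr1*, so the relation of the T cell genes was weaker inside the groups. Within the 8 libraries with nab-paclitaxel r was 0.745 for *Cd3e*, 0.192 for *Cd8a* and 0.873 for *Ncr1*, and within the 8 without it 0.370, 0.555 and 0.328. Without the 2 libraries farthest in mouse share, r was 0.569 for *Cd3e*, 0.443 for *Cd4*, 0.596 for *Cd8a*, 0.419 for *Nkg7* and 0.347 for *Il2rb*.

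**Figure D5:**
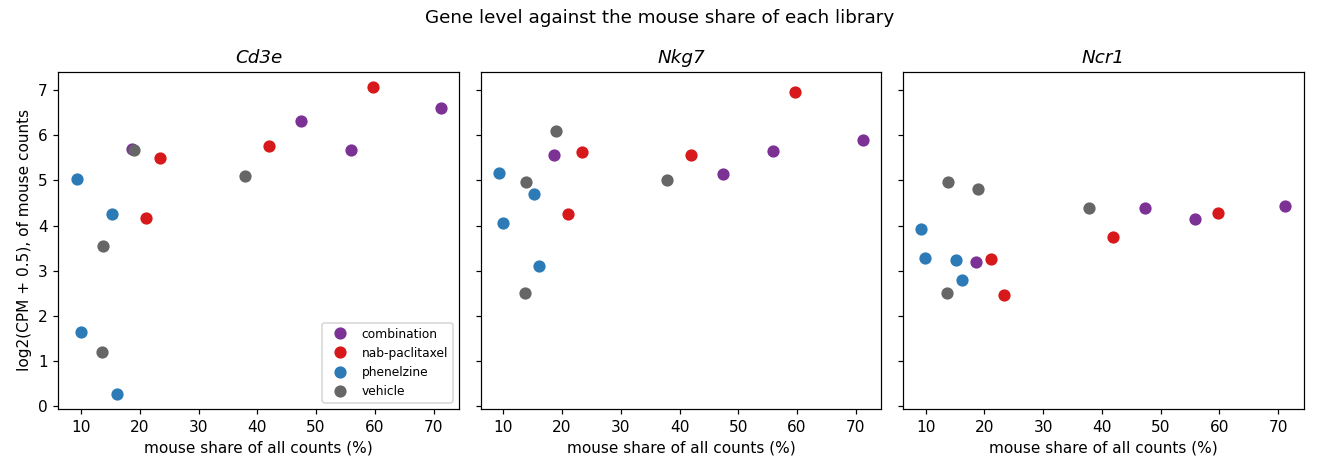
Level of *Cd3e*, *Nkg7* and *Ncr1* as log2(CPM + 0.5) against the mouse share of all counts in each library, coloured by group. Tumours without nab-paclitaxel lie at shares of 9.25% to 37.8%, where *Cd3e* runs from 0.715 to 50.8 CPM.

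Scaled instead to human and mouse counts together, which describes the whole tumour, 8 of the 10 genes were higher in all nab-paclitaxel tumours against all without (edgeR adjusted p under 0.05), as were 83.8% of all mouse genes tested. The median log2 fold change of all mouse genes on this scale was 1.35. *Cd3e* had 3.37 (SE 0.76, edgeR adjusted p = 0.00314), *Cd8a* 2.94 (SE 0.76, edgeR adjusted p = 0.00411) and *Cd4* 2.64 (SE 0.60, edgeR adjusted p = 0.00314). *Ncr1* had 1.54 (SE 0.52, edgeR adjusted p = 0.0105), close to the median of all genes, and *Gzma* had 0.79 (SE 0.50, edgeR adjusted p = 0.142) and *Klrb1c* 0.16 (SE 0.88, edgeR adjusted p = 0.861), both below it and not past the threshold. For the combination against phenelzine 9 of the 10 passed on this scale, all but *Klrb1c*, beside 86.3% of all mouse genes.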

How the data were processed

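The authors deposited whole-number counts per Ensembl gene in a human and a mouse matrix with the same 16 libraries, made with a TruSeq mRNA paired-end kit per the labels' protocols. The submitters' processing notes list, without roles, Trimmomatic 0.36, HISAT2 2.04, StringTie, Picard and edgeR, and as builds mm10 and hg38. How reads were divided between species, and whether strand was used, is not given in the sources used here. Columns were matched to mice through the sample names in the labels.

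Under R 4.3.3, edgeR 4.0.16 was run on the mouse matrix with its default low-count filter (minimum count of 10), TMM scaling, a mean for each group, all 16 libraries in 1 fit with 12 residual degrees of freedom, the quasi-likelihood F test and Benjamini-Hochberg adjustment over 15074 genes. The script was tested on simulated data. SE was taken as the log2 fold change over the root of the F statistic. Correlations used log2(CPM + 0.5) and Python 3.11.15 with scipy 1.17.1. Alternatives used DESeq2 1.42.0 and limma 3.58.1 (voom), other scalings, covariates, a replicate block and left-out libraries. Each library is 1 mouse, and p-values rest on the spread between these mice. No library repeated another of its group (chi-square per degree of freedom at least 13.1).

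The members, lists and tests were chosen with earlier results of these data known. The rule for named genes took all 10 members. The 10 further marker lists (84 genes), among them other leukocyte types, were not analysed here, because the files give Ensembl IDs without symbols and the reference table matched 0 of 48795 mouse IDs. The symbols of the 10 genes come with their list. The relation to the mouse share and the ratios between genes were added after the values were seen.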

Additional observations from a re-analysis of the deposited data

Results flagged for a closer look

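In 44 sets of 4 libraries (10 genes and the mouse share, in 4 groups), 5 held a library far from the other 3 by Dixon's 95% criterion. For independent sets of normally distributed values chance gives about 1 set in 20. CPM values were used here without a log and the genes share libraries and vary together, so that rate is no measure for these sets. *Klrb1c* was 3.50 CPM in combination 2, against 0 to 0.27 CPM in the other combination tumours. *Gzmb* was 114 CPM in the same tumour, against 35.3 to 44.2 CPM in the others. *Prf1* was 27.5 CPM in phenelzine 3, against 11.9 to 12.7 CPM in the other phenelzine tumours. *Cd4* was 51.1 CPM in that same tumour, against 12.7 to 19.3 CPM. *Cd4* was also 46.4 CPM in nab-paclitaxel 4, against 62.7 to 64.6 CPM in the other nab-paclitaxel tumours.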

How the results depend on the processing

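No gene of the list was called by edgeR at the mouse-total scale in any comparison, and leaving out any 1 library kept that number at 0 in all 8. The count changed with 3 settings. DESeq2 called 1 gene for the combination against phenelzine and 2 for all nab-paclitaxel tumours against all without, and voom called 1 in the second. Scaling to all counts of both species called 9 and 8, beside 86.3% and 83.8% of all mouse genes. The median log2 fold change of all mouse genes was 2.00 and 1.35 on that scale. There *Ncr1* and *Gzmb* for nab-paclitaxel against vehicle turned to 0.12 and 0.29, and *Gzma* for all nab-paclitaxel tumours against all without to 0.79. *Klrb1c* for the combination against nab-paclitaxel ran from -0.64 to 2.75 with 1 library left out and turned to -0.64 without combination 2, which holds 75 of its 164 counts. Of 666 other values of the reported fold changes, 649 kept their direction and side of the threshold, and 4 changed direction. None of the reported values had passed in the main fit, so a change of side could only be toward passing. Over every gene of the list and every comparison, 86 of 1966 values changed direction. The median r of the T cell pairs was 0.72 with group means removed, against 0.84.

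The background counts varied more: for all nab-paclitaxel tumours against all without, edgeR called 120 mouse genes, DESeq2 1299, voom 898, edgeR without the low-count filter 63, after leaving out the 4 libraries set apart by human genes 0, after adding the mouse share to the model 1, and 14 to 830 with 1 library left out. For the combination against phenelzine it was 1 by edgeR, 563 by DESeq2 and 391 by voom, and 1 to 389 by edgeR with 1 library left out, the highest without combination 4. DESeq2 also gave 221 for nab-paclitaxel against vehicle, 11 for phenelzine against vehicle, 18 for the interaction, 325 for the combination against vehicle, 46 for the combination against nab-paclitaxel and 23 for all phenelzine tumours against all without, where edgeR gave 0, 0, 0, 5, 3 and 4. The mouse share difference was 21.4 to 29.0 points for the first comparison and 28.0 to 45.5 for the second with 1 library left out. The cause of these changes was not tested.

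The replicate numbers were not treated as pairs in the main fit. Same-numbered deviations correlated at -0.19 to 0.31, 11 of 24 over 0.1, and 14 of 48 best matches had the same number. Whether the numbers pair the libraries was not tested. With a replicate block 0 genes of the list were called and 107 mouse genes for all nab-paclitaxel tumours against all without.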
